A study of Mus musculus with 9 samples.

Results

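The genes described here are 10 members of the oxidant defence that is run by the transcription factor NRF2, chosen by name from the 55416 genes counted in lenses of mouse embryos that lack the transcription factor ATF4. They were *Nfe2l2*, which encodes NRF2 itself, its inhibitor *Keap1*, the adaptor *Sqstm1* (p62), the NRF2 target genes *Nqo1* and *Hmox1*, the thioredoxin system genes *Txn1*, *Txnrd1*, *Srxn1* and *Prdx1*, and the catalase gene *Cat*. Each symbol matched a gene in all 9 libraries, and all 10 genes passed the filter on low counts that left 14903 genes for testing. RNA was sequenced from whole lenses, epithelium and fibers together, of 4 *Atf4* null and 5 wildtype embryos at embryonic day E16.5, with 1 library for the pair of lenses of an embryo. Null embryos were homozygous for the *Atf4*tm1Tow allele, in which a neomycin resistance cassette takes the place of *Atf4* coding sequence in every cell of the embryo, not in the lens alone. Wildtype embryos came from the same matings of heterozygotes and so shared the mixed C57Bl/6/129 background, in which the *Bfsp2* deletion carried by 129 mice was not genotyped. The comparison asks how the transcripts of these genes differ in the embryonic lens without ATF4.

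In most cells NRF2 is bound by KEAP1 and handed to a ubiquitin ligase for destruction. Oxidants and electrophiles modify KEAP1, NRF2 then accumulates, pairs with a small MAF protein and binds antioxidant response elements near genes for glutathione supply, NADPH supply, quinone reduction and heme breakdown. p62, an adaptor that carries ubiquitinated cargo into autophagosomes, can itself bind KEAP1 and take it to autophagy, and *Sqstm1* is also an NRF2 target. The thioredoxin arm passes electrons from NADPH through thioredoxin reductase and thioredoxin to peroxiredoxins, which destroy peroxides, and sulfiredoxin repairs overoxidised peroxiredoxin. The lens, whose transparency depends on proteins that are kept for life, relies on these systems and on glutathione to stay reduced.

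The files gave 7440807 to 8696699 gene counts per *Atf4* null library and 8409779 to 8906996 per wildtype library. *Atf4* itself was at 0.582 to 10.6 CPM (counts relative to the library total, scaled by the trimmed mean of M-values, TMM) in null and 119 to 156 CPM in wildtype libraries, and *Ddit3* (CHOP, a transcription factor of the same stress pathway) was at 34 to 62.9 CPM against 1.65 to 8.02 CPM. Wildtype replicate 5 stood apart, since its summed skeletal muscle markers reached 4702 CPM against 4.24 to 16.8 CPM in the other wildtype and 17.8 to 50.9 CPM in the null libraries, and its mesenchyme markers reached 14280 CPM against 66.1 to 146.1 CPM and 227.6 to 570.9 CPM, so each called member below is also given without it. Summed over 8 lens epithelium markers the level was 1049 to 1658 CPM in null and 1866 to 2452 CPM in wildtype libraries, and over 9 neural retina markers it was 243.7 to 729.7 CPM and 146.1 to 230.9 CPM. The epithelium sums did not overlap between the genotypes, nor did the retina sums. Over 6 pigment cell markers the sum was 43.1 to 109.4 CPM in null libraries. It was 20.2 to 42.1 CPM in wildtype replicates 1 to 4 and 141.5 CPM in wildtype replicate 5. Skeletal muscle, mesenchyme and pigment cell sums were thus higher in every null library than in wildtype replicates 1 to 4. The part of all these lists in the results below was not tested. Lens fiber markers overlapped (47140 to 112400 CPM in null, 61290 to 112700 CPM in wildtype libraries), a sum carried by crystallins, but all 11 tested fiber markers had a negative log2 fold change (median -0.47) and 4 were called lower without overlap, *Bfsp1* (-1.42), *Crygs* (-1.17), *Birc7* (-1.80) and *Dnase2b* (-1.89), against 3.67% of all genes called lower. The identifier matched to *Lim2* by its symbol was listed at 0 throughout, so the level of *Lim2* could not be read. Whether its reads were lost in counting or held by another identifier was not tested. The part of these markers in the results below was not tested. In bulk RNA, fewer cells of a type and less RNA per cell cannot be told apart.

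The promoters of 3 genes whose transcripts differed between the genotypes are printed. *Sqstm1* (higher in null lenses) and *Prdx1* (lower) are the called members that had a window. The cystine transporter gene *Slc7a11* (lower) was picked by name from the called genes of the lists below. The windows of the other called list genes were not examined singly. They are RefSeq windows of the GRCm38.p6 assembly, 250 bases before to 50 bases after the annotated start, 5′ to 3′ on the gene's strand, at chr11:50210771-50211070 (minus strand), chr4:116685349-116685648 (plus strand) and chr3:50443564-50443863 (minus strand). Capitals mark matches, on either strand, to the antioxidant response element core TGACNNNGC or to the ATF4 composite element TGATGCAA.
Sqstm1: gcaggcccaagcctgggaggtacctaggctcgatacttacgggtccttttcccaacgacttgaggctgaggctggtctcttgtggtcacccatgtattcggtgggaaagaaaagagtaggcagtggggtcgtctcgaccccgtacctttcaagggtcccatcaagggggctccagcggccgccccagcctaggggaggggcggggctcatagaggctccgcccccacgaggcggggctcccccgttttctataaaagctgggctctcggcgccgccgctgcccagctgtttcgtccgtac
Prdx1: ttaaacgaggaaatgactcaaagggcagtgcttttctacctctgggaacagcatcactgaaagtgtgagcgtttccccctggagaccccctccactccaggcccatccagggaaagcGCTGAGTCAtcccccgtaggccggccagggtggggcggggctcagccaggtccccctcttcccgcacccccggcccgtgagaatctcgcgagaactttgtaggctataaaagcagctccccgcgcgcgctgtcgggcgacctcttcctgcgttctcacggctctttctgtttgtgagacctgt
Slc7a11: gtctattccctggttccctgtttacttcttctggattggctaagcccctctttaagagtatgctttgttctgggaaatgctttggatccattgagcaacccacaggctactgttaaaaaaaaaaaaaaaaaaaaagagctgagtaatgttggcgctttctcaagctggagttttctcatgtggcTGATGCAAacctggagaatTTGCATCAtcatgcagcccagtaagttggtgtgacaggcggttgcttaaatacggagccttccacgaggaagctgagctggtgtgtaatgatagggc

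RefSeq windows were found for 9 of the 10 members, 11 windows in all because *Txnrd1* has 3 starts; *Hmox1* had none. The core TGACNNNGC occurred in a window of 4 of these 9 members, *Nfe2l2*, *Txnrd1* (1 of its 3 windows), *Srxn1* and *Prdx1*. Counted per window and not per gene, it occurred in 12.4% of all 32851 windows of the same length and in 14.2% of the 13494 windows of genes tested. The *Prdx1* match, which begins 133 bases before the start at chr4:116685466-116685474, was also the only one among the members to fit the longer element TGACTCAGC. That element is a special case of the core, and 0.454% of all windows and 0.348% of the windows of genes tested held it. None of the 9 members held the ATF4 composite element, which occurred in 0.895% of all windows and 0.541% of the windows of genes tested. The *Slc7a11* window held that element at 66 and at 47 bases before the start, on opposite strands, and 2 windows of the 32851 (0.00609%) held more than 1 match. The *Sqstm1* window held neither element. These matches describe the letters of the windows and are not evidence of binding.

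Of the 10 genes, 3 changed between the genotypes by the quasi-likelihood test of edgeR, with p-values adjusted over all genes tested after Benjamini and Hochberg, against 5.9% of all genes called. DESeq2 called 3 members too, against 9.46% of all genes. *Sqstm1* was the member that rose (2.23% of all genes were called higher), and *Hmox1* and *Prdx1* were the members that fell (3.67% were called lower). The remaining 7 genes did not pass, among them *Nfe2l2*, *Keap1*, *Nqo1* and *Cat*. The median log2 fold change over the 10 genes was -0.18, beside 0.001 over all genes tested. The levels of 4 members did not overlap between the genotypes, against 10.2% of all genes tested, with 2 members higher in null lenses (4.65% of all genes) and 2 lower (5.58% of all genes). When libraries were scaled by their totals alone, 5.3% of all genes were called higher and 2.95% lower, and *Sqstm1*, *Hmox1* and *Prdx1* were again the members called. With that scaling the levels of 3 members, without *Txnrd1*, did not overlap. Reads that mapped to more than one place were not counted, so *Txn1* and *Prdx1*, which have near-identical copies in the genome, are uncertain to that extent.

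**Figure D1:**
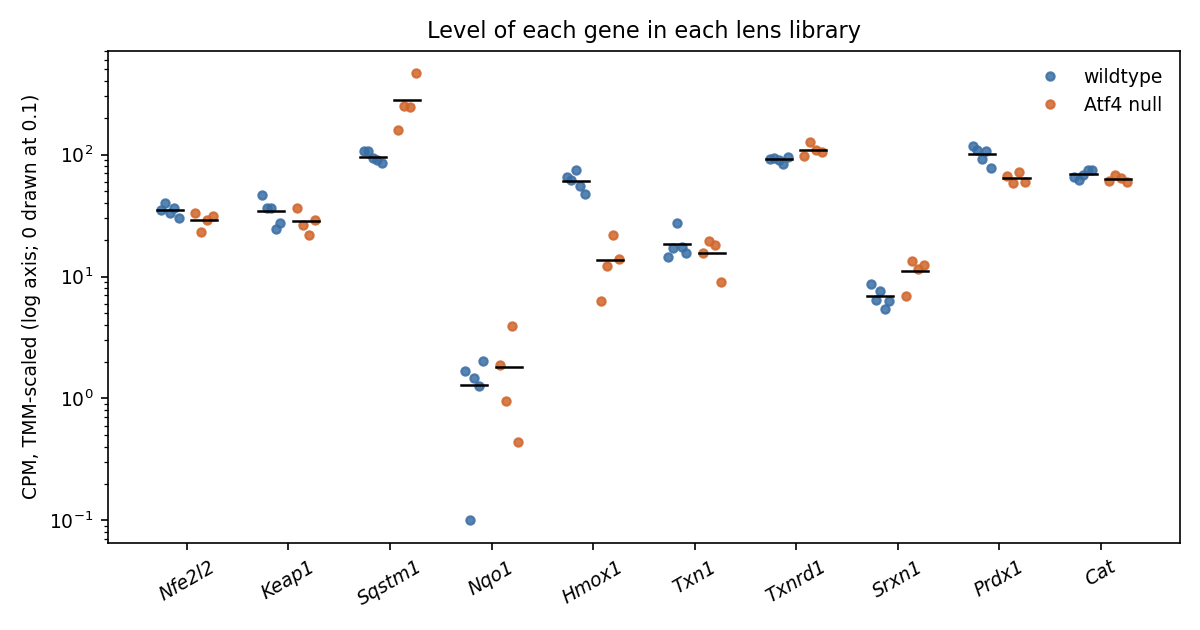
CPM (TMM-scaled, logarithmic axis) of the 10 genes in each of 5 wildtype (blue) and 4 *Atf4* null (orange) lens libraries, with 1 point per library and a black line at the group mean; the single 0, for *Nqo1* in wildtype replicate 2, is drawn at 0.1. The null points of *Sqstm1* and, with this scaling, *Txnrd1* all lie above, and those of *Hmox1* and *Prdx1* all below, the wildtype points.

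*Nfe2l2*, the gene for NRF2, was at 33.1, 23.3, 29.3 and 31.3 CPM in *Atf4* null replicates 1 to 4 and at 34.8, 39.9, 33.4, 36.6 and 30.1 CPM in wildtype replicates 1 to 5. Null replicate 2 was the lowest library and the groups overlapped. The log2 fold change of null over wildtype was -0.26 ± 0.17 (SE), with a 95% interval of -0.61 to 0.10 (edgeR adjusted p = 0.445). An antisense long non-coding RNA lies across *Nfe2l2* but reached at most 28 counts in a library. *Keap1*, the adaptor that holds NRF2 for ubiquitination, was at 36.6, 26.4, 22.0 and 29.0 CPM in null and 46.6, 36.8, 36.6, 24.6 and 27.6 CPM in wildtype libraries. Wildtype replicate 4 was below 3 of the 4 null libraries. Its log2 fold change was -0.27 ± 0.22 (SE), with an interval of -0.74 to 0.20 (edgeR adjusted p = 0.563). On the linear scale the intervals ran from 0.654 to 1.07 times the wildtype level for *Nfe2l2* and from 0.598 to 1.15 times for *Keap1*.

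*Sqstm1*, which encodes p62 (ENSMUSG00000015837, GRCm39 chr11:50089572-50107684, minus strand), was at 159, 252, 245 and 465 CPM in *Atf4* null replicates 1 to 4. In wildtype replicates 1 to 5 it was at 107, 106, 93.5, 89.4 and 85.7 CPM. All 4 null libraries were above all 5 wildtype libraries, and null replicate 4 was far above the other null libraries. Null replicate 4 also stood apart in lens markers, with summed fiber markers of 112400 CPM against 47140, 73040 and 70360 CPM in null replicates 1 to 3, and the lowest sum of epithelium markers, 1049 CPM against 1617 to 1658 CPM. The 4 null libraries had the same order in summed fiber markers as in *Sqstm1*, while in wildtype libraries, with *Sqstm1* lower, fiber markers were at 61290 to 112700 CPM, and the part of fiber content in the *Sqstm1* result was not tested. Reads outside annotated genes ran in the reverse order, at 24.4%, 18.5%, 19.5% and 15.8% in null replicates 1 to 4 beside 20.4 to 26.1% in wildtype libraries, and null replicate 4 had the fewest genes detected, 17783 against 18807 to 20810 in the other 8 libraries, and their part was not tested either. The null mean of 280.1 ± 130 CPM (SD, n = 4) was 2.91 times the wildtype mean of 96.3 ± 9.7 CPM (SD, n = 5). The log2 fold change was 1.54 ± 0.23 (SE), with a 95% interval of 1.04 to 2.04 (edgeR adjusted p = 0.00157), and the exact two-sided permutation test over the libraries gave the smallest p it can reach, 0.0079. Without null replicate 4 the log2 fold change was 1.18, and without wildtype replicate 5 it was 1.51, and *Sqstm1* passed the edgeR test in both fits (adjusted p = 0.000697 and 0.000671). The null libraries differed among themselves by 2.92-fold from lowest to highest, beside 1.25-fold in wildtype. *Mgat4b* and *Mrnip*, protein-coding genes on the opposite strand that overlap *Sqstm1*, had log2 fold changes of 0.17 ± 0.18 (SE) and -0.06 ± 0.59 (SE).

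Among the classical NRF2 target genes, *Hmox1* encodes heme oxygenase 1, which opens the heme ring to yield biliverdin, iron and carbon monoxide (ENSMUSG00000005413, GRCm39 chr8:75820241-75827217, plus strand). It was at 6.28, 12.2, 21.9 and 14.0 CPM in *Atf4* null replicates 1 to 4 and at 65.1, 62.1, 75.2, 55.7 and 47.9 CPM in wildtype replicates 1 to 5. Every null library was far below every wildtype library. The wildtype mean of 61.2 ± 10.3 CPM (SD, n = 5) was 4.50 times the null mean of 13.6 ± 6.46 CPM (SD, n = 4), and the log2 fold change was -2.17 ± 0.29 (SE), with an interval of -2.80 to -1.54 (edgeR adjusted p = 0.00069). The exact permutation test again gave its smallest p, 0.0079. Without wildtype replicate 5 the log2 fold change was -2.24. Heme oxygenase 1 is abundant in macrophages that digest red cells, and the lens of the embryo is wrapped in hyaloid vessels. Summed over 11 macrophage markers the level was 100.6 to 132.1 CPM in null and 100 to 113.4 CPM in wildtype libraries. All 11 of these markers overlapped between the genotypes and edgeR and DESeq2 both called 0, with 0 at an unadjusted edgeR p under 0.05 (19.6% of all genes), 8 with a positive and 3 with a negative log2 fold change, among the latter *Adgre1* at 1.10 to 3.18 CPM in null and 2.18 to 7.28 CPM in wildtype libraries (-1.15 ± 0.57 SE). Erythroid markers overlapped slightly, at 183.1 to 256.1 CPM in null and 231 to 742.9 CPM in wildtype libraries, as did vascular endothelium markers, at 180.5 to 394.2 CPM and 337.1 to 597.4 CPM, and the part of these 3 lists in the *Hmox1* result was not tested. All 7 tested erythroid markers had a negative log2 fold change, with a median of -0.95, and edgeR called 1 (5.9% of all genes), the globin gene *Hba-a1* (-1.14 ± 0.26 SE), and DESeq2 4 (9.46% of all genes). All 8 vascular endothelium markers were negative too, with a median of -0.68, and by the same rules edgeR called 1, *Plvap* (-0.68 ± 0.19 SE), and DESeq2 3.

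*Nqo1*, the quinone reductase that is the common reporter of NRF2 activity, was close to undetected in lens of both genotypes. It had 19, 8, 36 and 3 counts in *Atf4* null replicates 1 to 4, or 1.89, 0.960, 3.95 and 0.437 CPM, and 13, 0, 12, 10 and 19 counts in wildtype replicates 1 to 5, or 1.67, 0, 1.48, 1.27 and 2.04 CPM. The highest value and the second lowest were both in null libraries. The log2 fold change was 0.49 ± 0.90 (SE), with an interval of -1.45 to 2.43 (edgeR adjusted p = 0.839), and it was -0.23 without null replicate 3, so no direction could be read at this depth.

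In the thioredoxin system, *Txn1* encodes cytosolic thioredoxin, the small dithiol protein that reduces peroxiredoxins. It was at 15.4, 19.6, 18.1 and 9.03 CPM in *Atf4* null and 14.4, 17.03, 27.4, 17.6 and 15.6 CPM in wildtype libraries. Both the lowest and the highest library stood away from the rest of their group, and the groups overlapped (log2 fold change -0.24 ± 0.27 SE, interval -0.83 to 0.34, edgeR adjusted p = 0.70). *Txnrd1*, the selenoprotein that reduces thioredoxin at the expense of NADPH, was at 97.8, 127, 109 and 105 CPM in null and 92.2, 94.3, 90.7, 83.5 and 95.3 CPM in wildtype libraries. All null libraries were above all wildtype libraries, by a small margin that was lost when libraries were scaled by their totals alone (97.2 to 134 CPM in null, 78.5 to 99.9 CPM in wildtype libraries; exact permutation p = 0.0238). The exact permutation test gave p = 0.0079, but the log2 fold change of 0.27 ± 0.11 (SE; interval 0.03 to 0.50) did not pass the edgeR test over all genes (adjusted p = 0.189), nor in any of 17 alternative fits (0.0613 to 0.465). *Eid3*, a protein-coding gene on the same strand that overlaps *Txnrd1*, had 4 to 52 counts in a library. Its log2 fold change was 1.01 ± 0.57 (SE, edgeR adjusted p = 0.366), and its part in the *Txnrd1* level was not tested.

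*Srxn1*, sulfiredoxin, was at 6.98, 13.4, 11.6 and 12.4 CPM in *Atf4* null and 8.73, 6.42, 7.66, 5.44 and 6.32 CPM in wildtype libraries. Null replicates 2, 3 and 4 were above every wildtype library and null replicate 1 lay among them. The log2 fold change was 0.68 ± 0.30 (SE; interval 0.04 to 1.32, edgeR adjusted p = 0.220), with an exact permutation p of 0.0397. With *Sqstm1*, *Hmox1* and *Prdx1*, *Txnrd1* and *Srxn1* make 5 of the 10 genes with an unadjusted edgeR p under 0.05, beside 19.6% of all genes tested.

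*Prdx1*, the cytosolic peroxiredoxin that removes hydrogen peroxide with electrons from thioredoxin (ENSMUSG00000028691, GRCm39 chr4:116532123-116558398, plus strand), was at 67.0, 58.1, 72.4 and 59.1 CPM in *Atf4* null replicates 1 to 4. In wildtype replicates 1 to 5 it was at 117, 108, 92.2, 107 and 77.9 CPM. The groups did not overlap, with wildtype replicate 5 nearest to the null libraries. The wildtype mean of 100.4 ± 15.5 CPM (SD, n = 5) was 1.57 times the null mean of 64.1 ± 6.78 CPM (SD, n = 4). The log2 fold change was -0.65 ± 0.14 (SE), with an interval of -0.95 to -0.35 (edgeR adjusted p = 0.0147; exact permutation p = 0.0159). Without null replicate 2 it was -0.60 and the edgeR adjusted p rose to 0.0529, and without wildtype replicate 5 it was -0.72 with an adjusted p of 0.00184.

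*Cat*, catalase, the peroxisomal enzyme that splits hydrogen peroxide without a reductant, had levels of 60.8, 67.8, 64.3 and 59.4 CPM in *Atf4* null and 65.5, 61.3, 67.6, 74.8 and 75.2 CPM in wildtype libraries. The groups overlapped, and *Cat* varied little from library to library, with a coefficient of variation of 5.95% in null and 8.74% in wildtype. Its log2 fold change of -0.13 ± 0.12 (SE) had an interval of -0.38 to 0.13 (edgeR adjusted p = 0.633), or 0.767 to 1.09 times the wildtype level.

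**Figure D2:**
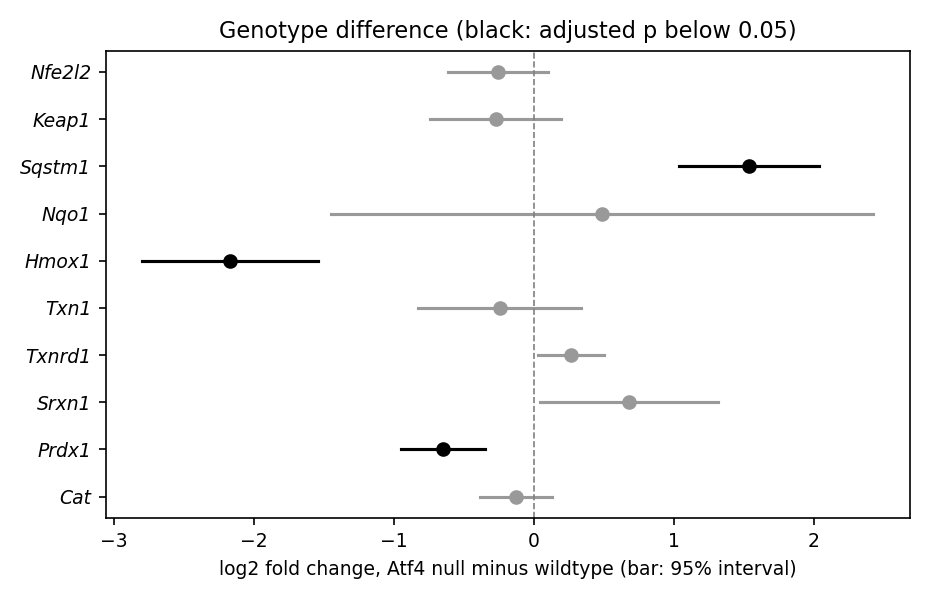
Log2 fold change of *Atf4* null over wildtype lenses (4 and 5 libraries) for each gene, with its 95% interval from the edgeR fit as a bar; black marks an adjusted p below 0.05. *Sqstm1* at 1.54, *Hmox1* at -2.17 and *Prdx1* at -0.65 are black, and the bar of *Nqo1* runs from -1.45 to 2.43.

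Levels of different genes were compared as fragments per kilobase of summed exon length, scaled like CPM (FPKM, from the same TMM-scaled counts). In wildtype lenses the order of mean FPKM was *Hmox1* (34.8), *Prdx1* (24.1), *Cat* (18.8), *Txnrd1* (12.9), *Sqstm1* (11.7), *Txn1* (8.37), *Nfe2l2* (6.40), *Keap1* (6.05), *Srxn1* (0.736) and *Nqo1* (0.470). The libraries of neighbours in this order overlapped except between *Cat* and *Txnrd1* and between *Keap1* and *Srxn1*. In *Atf4* null lenses *Sqstm1* (34.2 FPKM) stood first, above *Cat* (17.2), *Txnrd1* (15.5), *Prdx1* (15.4), *Hmox1* (7.74), *Txn1* (7.06), *Nfe2l2* (5.35), *Keap1* (5.01), *Srxn1* (1.18) and *Nqo1* (0.658). There the neighbours without overlap were *Sqstm1* and *Cat*, *Prdx1* and *Hmox1*, and *Keap1* and *Srxn1*. *Hmox1* and *Sqstm1* thus exchanged places, 1 and 5 in the order, while *Txn1*, *Nfe2l2*, *Keap1*, *Srxn1* and *Nqo1* held the same places in both genotypes. Summed exon lengths cover every annotated isoform, 8203 bases for *Sqstm1* and 9391 bases for *Srxn1*, and so lower the FPKM of genes with long annotated ends.

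The profile of *Sqstm1* over the 9 libraries was set beside those of the 10855 genes with a mean of at least 50 counts, as log2 CPM centred on the wildtype mean. The nearest profiles, by the root mean square of the differences, were those of *Aen* (0.23), a nuclease gene, *Epha2* (0.25), an ephrin receptor gene, *Tmod1* (0.25), which encodes a cap of actin filament ends, *2410006H16Rik* (0.27) and *Ccng1* (0.27), which encodes cyclin G1. In each of these, as in *Sqstm1*, null replicate 1 was the lowest and null replicate 4 the highest of the null libraries, as they also were in summed fiber markers. *Aen*, for example, was at 72.5, 103, 97.4 and 132 CPM in null and at 39.4, 39.5, 31.1, 44.7 and 35.6 CPM in wildtype libraries. All 5 rose, with log2 fold changes from 1.24 for *Tmod1* to 1.503 for *2410006H16Rik*; likeness to *Sqstm1* in itself includes that difference between the genotypes.

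**Figure D3:**
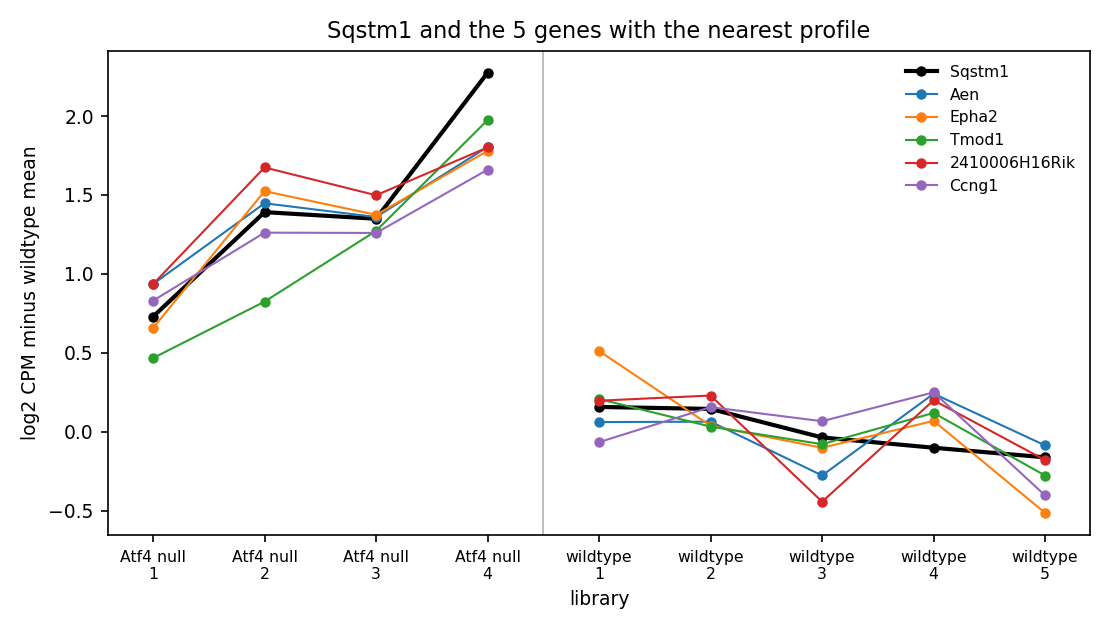
Log2 CPM minus the wildtype mean of *Sqstm1* (black) and the 5 genes with the nearest profile (colours), in each *Atf4* null (left) and wildtype (right) library; lines join libraries only to guide the eye. In all 6 genes null replicate 4 is the highest library and null replicate 1 the lowest of the null libraries.

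Of the other genes of the pathway, 97 were tested in 6 lists chosen by function, of which 2 rose and 12 fell (14.4%, against 5.9% of all genes). The 14 called genes became 9 to 16 when a library was left out, with 9 without *Atf4* null replicate 3 or wildtype replicate 1, 2 or 3. The median log2 fold change of the 97 genes was -0.08. Partners of NRF2 and the factors that destroy or compete with it held 13 tested genes, of which edgeR called 0, with 3 at an unadjusted p under 0.05 (19.6% of all genes), and DESeq2 called 1 (9.46% of all genes). The smallest adjusted p in that list was that of *Nfe2l1*, the NRF1 gene, at 213.5 to 339.5 CPM in null and 175.1 to 243.2 CPM in wildtype libraries (log2 fold change 0.44 ± 0.14 SE, edgeR adjusted p = 0.0929). The other genes at an unadjusted p under 0.05 were the competitor *Bach2* (log2 fold change 0.54 ± 0.20 SE, edgeR adjusted p = 0.148) and *Btrc*, a substrate receptor of a ubiquitin ligase (-0.45 ± 0.18 SE, edgeR adjusted p = 0.171). Of the 13 log2 fold changes 9 were positive and 4 negative.

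Among 21 further NRF2 target genes, 1 rose (2.23% of all genes were called higher) and 6 fell (3.67% were called lower), with a median log2 fold change of -0.28. *Gsr*, glutathione reductase, rose from 23.0 to 34.3 CPM in wildtype to 36.7 to 56.9 CPM in *Atf4* null libraries (log2 fold change 0.75, edgeR adjusted p = 0.0341). *Gstm1*, a glutathione transferase of a family of near-identical genes and uncertain for that reason, fell from 63.6 to 119 CPM to 11.1 to 18.1 CPM (log2 fold change -2.59, edgeR adjusted p = 3.49e-05). *Slc7a11*, the cystine importer whose promoter is printed above, fell from 53.0 to 92.2 CPM to 16.7 to 31.0 CPM (log2 fold change -1.78, edgeR adjusted p = 0.000377). The sugar phosphate enzymes transketolase (*Tkt*), phosphogluconate dehydrogenase (*Pgd*) and transaldolase (*Taldo1*) fell by 1.12, 0.72 and 0.69 on the log2 scale. *G6pdx*, for the glucose 6-phosphate dehydrogenase that opens the same pathway, was at 19.7 to 35.3 CPM in null and 29.8 to 38.99 CPM in wildtype libraries and did not pass (-0.29 ± 0.19 SE, edgeR adjusted p = 0.455). The exporter gene *Abcc4* fell by 1.42 on the log2 scale. *Gclc* and *Gclm*, the subunits of the enzyme that commits glutamate to glutathione, had log2 fold changes of -0.14 ± 0.19 (SE) and -0.35 ± 0.24 (SE) and did not pass. Of the 21 log2 fold changes in the list, 15 were negative and 6 positive.

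Of 23 other thioredoxin and peroxiredoxin genes, 1 rose (2.23% of all genes were called higher) and 2 fell (3.67% were called lower), with a median log2 fold change of -0.13. *Txnip*, which encodes the protein that binds and inhibits thioredoxin, rose from 12.2 to 49.4 CPM in wildtype to 74.7 to 92.5 CPM in null libraries (log2 fold change 1.87 ± 0.33 SE, edgeR adjusted p = 0.00476). Its highest wildtype value was that of replicate 5, and the other wildtype libraries were lower. The endoplasmic reticulum thioredoxin *Txndc12* fell by 1.01 and *Sesn1*, a sestrin, fell by 0.92 on the log2 scale. The list on superoxide and hydrogen peroxide held 13 tested genes, for enzymes that make or remove them and for a copper chaperone and peroxisomal import factors, of which 0 rose and 3 fell, with a median of -0.25. These were the glutathione peroxidase genes *Gpx1* (log2 fold change -0.90, edgeR adjusted p = 0.0134, with overlapping libraries) and *Gpx4* (-0.51, adjusted p = 0.045), and *Nox4*, an oxidase that makes hydrogen peroxide (-1.71, adjusted p = 0.0423).

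Around heme and quinones, 1 of 9 tested genes changed (5.9% of all genes were called), the cytochrome b5 reductase gene *Cyb5r3*, which fell from 185.5 to 248.3 CPM in wildtype to 107 to 131 CPM in null libraries (log2 fold change -0.93, edgeR adjusted p = 0.000572). Of 19 tested partners of p62 and other autophagy receptors edgeR and DESeq2 both called 0, beside 5.9% and 9.46% of all genes, and 2 were at an unadjusted edgeR p under 0.05, beside 19.6% of all genes. Their median log2 fold change was 0.04. The smallest adjusted p there was 0.136, for the receptor gene *Tax1bp1* (log2 fold change 0.44 ± 0.16 SE), and the receptor gene *Optn* was at 140.4 to 445.2 CPM in null and 96.1 to 202.3 CPM in wildtype libraries (0.67 ± 0.28 SE, edgeR adjusted p = 0.206).

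**Figure D4:**
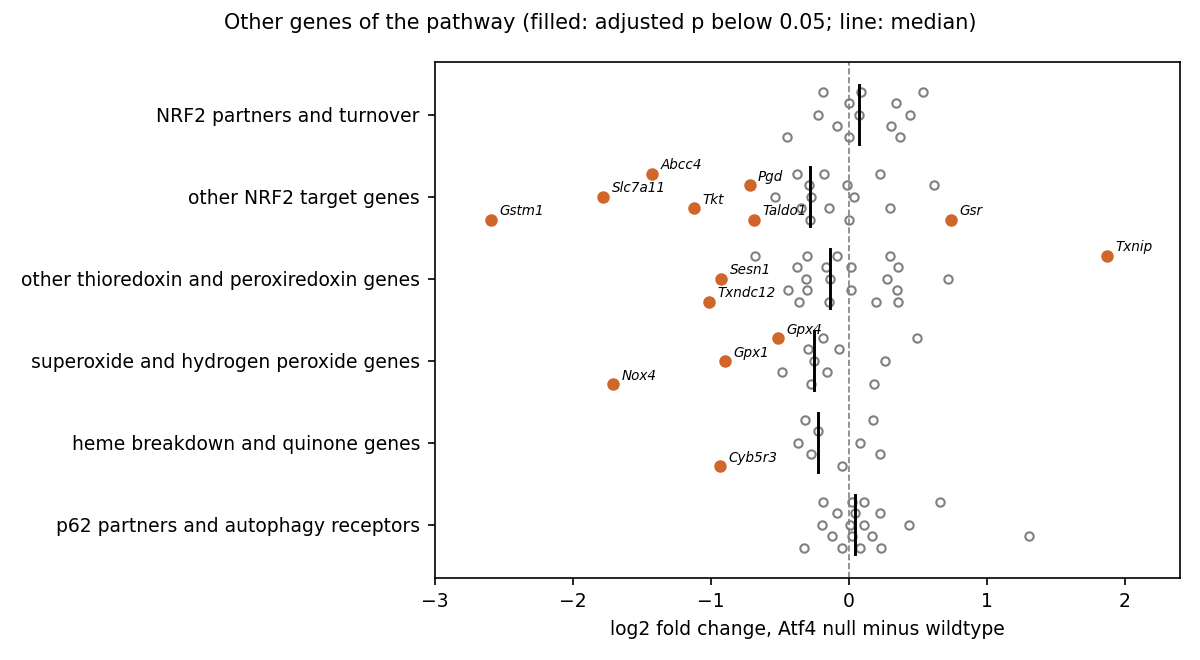
Log2 fold change of *Atf4* null over wildtype lenses for each tested gene of 6 lists of related genes (points spread vertically for legibility), with named, filled points for an edgeR adjusted p below 0.05, open points for the rest and a black line at the median of each list. Filled points lie to the left of 0 except *Gsr* at 0.75 and *Txnip* at 1.87, and 2 lists, at the top and at the bottom, hold none.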

How the data were processed

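Per the submitters' processing notes and the methods of the study, the authors trimmed reads with Trim Galore, aligned them to GRCm39 with HISAT2 and assigned them to genes with HTSeq, and the deposited values are raw counts per gene, with no normalization. The strand setting of HTSeq and the tool versions were not given in the sources used here. The 5 summary entries of HTSeq (44.6 to 47.7% of reads) were left out. Symbols, positions and exon lengths came from GENCODE mouse release 39, and promoter windows from RefSeq. The 54749 identifiers with a symbol held all but 0.033% of counts. *Akr1b3*, on a list, matched no symbol.

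Counts were filtered with filterByExpr, scaled by TMM and compared by genotype with edgeR 4.0.16 (glmQLFit and glmQLFTest, no covariate) in R 4.3.3, with Benjamini-Hochberg adjustment over 14903 genes (threshold 0.05). Single members were also compared by an exact two-sided permutation test on log2 CPM (prior count 2; 10 tests, unadjusted). No 2 libraries were alike beyond sampling noise (lowest chi-square per degree of freedom 7.70 over 36 pairs). On simulated counts the test called 43.2% of genes changed by 1 and 77.8% of those changed by 2 on the log2 scale, and 4 of 14216 unchanged genes. The members and lists were chosen with earlier results of these data known. All members were named, with every called gene of each list or its smallest adjusted p. *Bach2*, *Btrc*, *G6pdx*, *Gclc*, *Gclm*, *Optn*, *Adgre1*, *Hba-a1*, *Plvap* and the single lens and retina markers were named after their values were seen. *Slc7a11* was the only list gene picked for a printed promoter. Alternatives were DESeq2 1.42.0, exactTest, robust fitting, other scalings and filters, a replicate block and leaving out each library. Wildtype replicate numbers are uncertain because titles and count files name different wildtype libraries.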

Additional observations from a re-analysis of the deposited data

Results flagged for a closer look

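*Txn1* in wildtype replicate 3, at 27.4 CPM, lay apart from the other 4 wildtype libraries, which were at 14.4 to 17.6 CPM; the gap was 0.754 of the range of the group. Of 20 groups of libraries examined in this way 1 stood out, and chance gives about 1 in 20.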

How the results depend on the processing

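*Sqstm1* and *Hmox1* kept their direction and passed the threshold in all 17 alternative fits, with log2 fold changes of 1.18 to 1.74 and -2.50 to -1.92. *Prdx1* passed in 16 of 17, the exception being -0.60 (edgeR adjusted p = 0.0529) without *Atf4* null replicate 2, and the count of members called ran from 2 to 3 when a library was left out. *Nqo1* turned to -0.23 without *Atf4* null replicate 3 (-0.23 to 0.80 when a library was left out), and had no value when at least 10 counts were required in every library; the cause was not tested. The count of all genes called was 880, and 1397 with DESeq2, where the same number of members, 3, was called; it ran from 527 (without *Atf4* null replicate 2) to 1207 (without wildtype replicate 5) when a library was left out, and was 562, 562 and 570 without *Atf4* null replicate 3, wildtype replicate 3 and wildtype replicate 2. The 14 called genes of the pathway lists became 9 to 16, with 9 without *Atf4* null replicate 3 or wildtype replicate 1, 2 or 3. Scaling by library size in place of TMM moved the median log2 fold change of all genes from 0.001 to 0.12 and the share of calls that were higher from 37.8% to 64.3%, with 3 members called as before. Same-numbered libraries did not deviate together (r from -0.13 to 0.008 over 4 pairs, 0 of 4 null libraries nearest to their own number). With a replicate block 852 genes, 3 members and 13 pathway genes were called. The labels do not tie equal numbers to a shared litter and the wildtype numbers are uncertain, so neither result can show whether litters were shared. At this depth *Nqo1*, with 0 to 36 counts, could not be compared.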
